A study of Mus musculus with 25 samples.

Results

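The 8 genes described here are Traf1, Traf2, Traf3, Traf4, Traf5, Traf6, Birc2 and Birc3, found by symbol in every library's table, out of 22985 gene symbols kept. All 8 passed the filter on low values and were tested. Expression was measured by RNA-seq in 25 libraries of T cells from spleen and lymph node of C57BL/6 mice. WT denotes wild type, Tconv conventional T cells, and Treg regulatory T cells, whose identity rests on the factor Foxp3. p65KO Treg lack p65 (gene Rela), c-RelKO Treg lack c-Rel (gene Rel), and DKO Treg lack both of these NF-kB subunits. The resting groups were WT Treg (n = 4 libraries), WT Tconv (n = 2), p65KO Treg (n = 3), c-RelKO Treg (n = 2) and DKO Treg (n = 2). Cells stimulated for 3 h by antibodies to CD3 and CD28 with IL-2 present gave 2 libraries each for WT Treg, WT Tconv and DKO Treg, but a single library for p65KO Treg and for c-RelKO Treg. The remaining 4 libraries were stimulated cells of a set treated with TAT-Cre, a recombinase that enters cells: WT Tconv and WT Treg controls without deletion, and Treg labelled FoxP3-del and NFkB-del. The labels give no Cre driver, age or number of animals, and nothing says that replicates came from separate animals, so p-values measure the spread between these libraries, which may be technical.

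TRAF proteins are adaptors that gather at the tails of TNF receptor family members and of Toll-like and IL-1 receptors after the ligand binds. TRAF2 recruits the ubiquitin ligases cIAP1 (Birc2) and cIAP2 (Birc3), and together with TRAF3 they keep the kinase NIK (Map3k14) degraded, which holds the non-canonical NF-kB pathway off. At activated receptors the same ligases build ubiquitin chains that lead to the canonical IKK complex and restrain caspase 8. TRAF6 serves the Toll-like and IL-1 receptors, and TRAF5 is close to TRAF2 in structure and use. TRAF1 lacks the RING domain of its relatives and modifies TRAF2 signalling, and TRAF4 is a further adaptor of the family. Traf1 and Birc3 are well-known NF-kB target genes.

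In the mm9 build of the files Birc2 (chr9:7818226-7835255) and Birc3 (chr9:7848701-7873170) lie next to each other, 13.4 kb apart with 0 annotated entries between them. Traf1 (chr2:34798778-34817292), Traf2 (chr2:25373502-25402414) and Traf6 (chr2:101518597-101541131) share a chromosome at a distance. Traf3 (chr12:112404759-112505359), Traf4 (chr11:77971925-77979052) and Traf5 (chr1:193821088-193916445) lie elsewhere. Traf5 overlaps the microRNA entry Mir3473c, so its reads could have been divided, and the other members overlap no entry. Promoter windows of 250 bases before to 50 after the annotated start were taken from RefSeq (build GRCm38.p6, other coordinates than mm9), which held all 8 genes. The 10-letter kappa-B consensus, the motif bound by NF-kB dimers, was searched on both strands and stood in 4.51% of 32851 such windows. Windows of 3 members that were lower without both subunits are printed 5′ to 3′, with a match to the consensus in capitals. Traf1 is at chr2:34961723-34962022 on the minus strand, Traf3 at chr12:111166120-111166419 on the plus strand, and Birc3 at chr9:7873121-7873420 on the minus strand.
Traf1: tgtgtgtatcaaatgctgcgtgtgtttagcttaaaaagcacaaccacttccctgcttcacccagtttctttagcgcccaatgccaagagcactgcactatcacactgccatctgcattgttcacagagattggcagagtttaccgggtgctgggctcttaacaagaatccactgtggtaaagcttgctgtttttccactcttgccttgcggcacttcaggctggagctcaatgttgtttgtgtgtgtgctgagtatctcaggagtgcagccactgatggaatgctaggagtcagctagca
Traf3: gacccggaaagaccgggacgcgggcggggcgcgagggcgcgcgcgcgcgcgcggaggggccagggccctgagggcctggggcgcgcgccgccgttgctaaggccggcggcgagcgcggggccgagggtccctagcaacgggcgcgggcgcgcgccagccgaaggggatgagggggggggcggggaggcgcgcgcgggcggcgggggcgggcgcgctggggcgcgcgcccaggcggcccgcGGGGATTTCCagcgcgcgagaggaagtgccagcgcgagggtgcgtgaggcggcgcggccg
Birc3: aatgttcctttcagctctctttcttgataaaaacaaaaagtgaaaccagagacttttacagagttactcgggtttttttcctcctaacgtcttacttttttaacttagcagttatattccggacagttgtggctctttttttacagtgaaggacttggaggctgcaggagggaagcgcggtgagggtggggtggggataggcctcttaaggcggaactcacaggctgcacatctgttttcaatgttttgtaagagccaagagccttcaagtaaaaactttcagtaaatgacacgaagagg
Only the Traf3 window among the members' windows held a match, GGGGATTTCC, which begins 10 bases before the start on the strand of the gene. The windows of the other 7 genes held none, which says only that these letters are not in the windows around their starts. A looser 9-letter form stood in 26.6% of all windows and, besides Traf3, in 1 of the 2 windows of Birc2.

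The labels were checked against Rela, Rel and Foxp3. Rel was 1.76 to 2.23 FPKM (fragments scaled to transcript length and to the mapped fragments of the library) in all 7 c-RelKO and DKO libraries and 24.6 or more in every other library. Rela was 58.0 to 79.8 FPKM in the 4 p65KO libraries and 64.9 to 130 in WT Treg, and these ranges overlap. In DKO Treg it was 76.1 and 56.3 FPKM at rest and 107 and 99 after stimulation. All but the 56.3 lay within the WT Treg range. Taken run by run, each DKO value was lower than its WT Treg counterpart. Those were 130 (run 3) and 124 (run 4) at rest, and 126 and 118 after stimulation. Mean Rela at rest was 66.2 FPKM in DKO and 135 in c-RelKO Treg. Rela RNA was thus lower in the DKO libraries within each run, but it did not set them apart as sharply as Rel did. Foxp3 was 129 to 351 FPKM in resting WT Treg, 8.01 and 21.2 in resting DKO Treg, and 0.542 and 0.927 in WT Tconv, so the DKO Treg libraries largely lack the factor that defines their labelled cell type. Library numbers fall into consecutive runs, which the labels do not call batches: run 1 (1 and 2), run 2 (6 and 7), run 3 (10 to 16) and run 4 (21 to 30, with 31 to 34 for the TAT-Cre set). Run 1 holds WT Treg replicate 1 and p65KO replicate 1 and stood apart for several members, so comparisons that include it are also given without it. Its WT Treg library had 27.5 FPKM of Rel, against 200, 271 and 252 in the other resting WT Treg. Resting WT Tconv had 63.5 and 62.6. Summed Treg markers in that WT Treg library were 657 FPKM, against 1764, 1725 and 1613 in the other resting WT Treg. Markers of other cells were present to differing degrees. Outside the TAT-Cre set, summed myeloid markers were highest in c-RelKO Treg replicate 2 (1638 FPKM) and p65KO Treg replicate 3 (724), followed by stimulated DKO Treg replicate 2 (95.2), WT Treg replicate 1 (89.5) and c-RelKO Treg replicate 1 (80.5). The other resting WT Treg had 5.24 to 24 FPKM. Summed erythroid markers were 20689 FPKM in c-RelKO Treg replicate 2, 634 in WT Treg replicate 2, 388 in stimulated DKO Treg replicate 2 and 191 in WT Treg replicate 1. Summed B cell markers were highest in c-RelKO Treg replicate 2 (213 FPKM) and WT Treg replicate 1 (59.7). Each member rested on 339 to 20144 implied fragments per library, a counting error of at most 5.43%.

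Traf1 and Birc3 were the most abundant members in WT Treg, at 168 ± 52.8 and 111 ± 30 FPKM (SD, n = 4), followed by Traf4, Birc2 and Traf6 at 72.4 ± 39.3, 61.1 ± 12 and 44.0 ± 15.4 FPKM. Traf3, Traf2 and Traf5 closed the order at 26.6 ± 2.35, 26.4 ± 3.39 and 20.8 ± 11.2 FPKM. FPKM are scaled per transcript length, so levels can be set side by side, but the ranges of every pair of neighbours in this order overlapped. Traf1 exceeded Birc3, and Birc3 exceeded Traf4, in 4 of 4 libraries, while Traf3 exceeded Traf2 in 2 of 4. In WT Tconv the order was Traf1 (134 ± 14.5), Birc3 (125 ± 11.1), Birc2 (56.1 ± 1.2), Traf6 (30 ± 1.76), Traf2 (28.1 ± 2.11), Traf4 (27.7 ± 2.44), Traf3 (26.2 ± 3.75) and Traf5 (20.1 ± 0.137; FPKM, SD, n = 2). By these means Traf4 stood above Birc2 and Traf6 in WT Treg and below both in WT Tconv. In WT Treg replicate 1, however, Traf4 was below both, at 14.3 FPKM against 52.5 and 22.6. Across 21 libraries, with the TAT-Cre set left aside, Traf2 varied least, from 23.9 to 34 FPKM, and Traf4 most, from 12.2 to 117 FPKM. In the plot of every library, run 1 lies below the other WT Treg for Traf1, Traf4, Traf6, Birc2 and Birc3, and above them for Traf2 and Traf5.

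**Figure D1:**
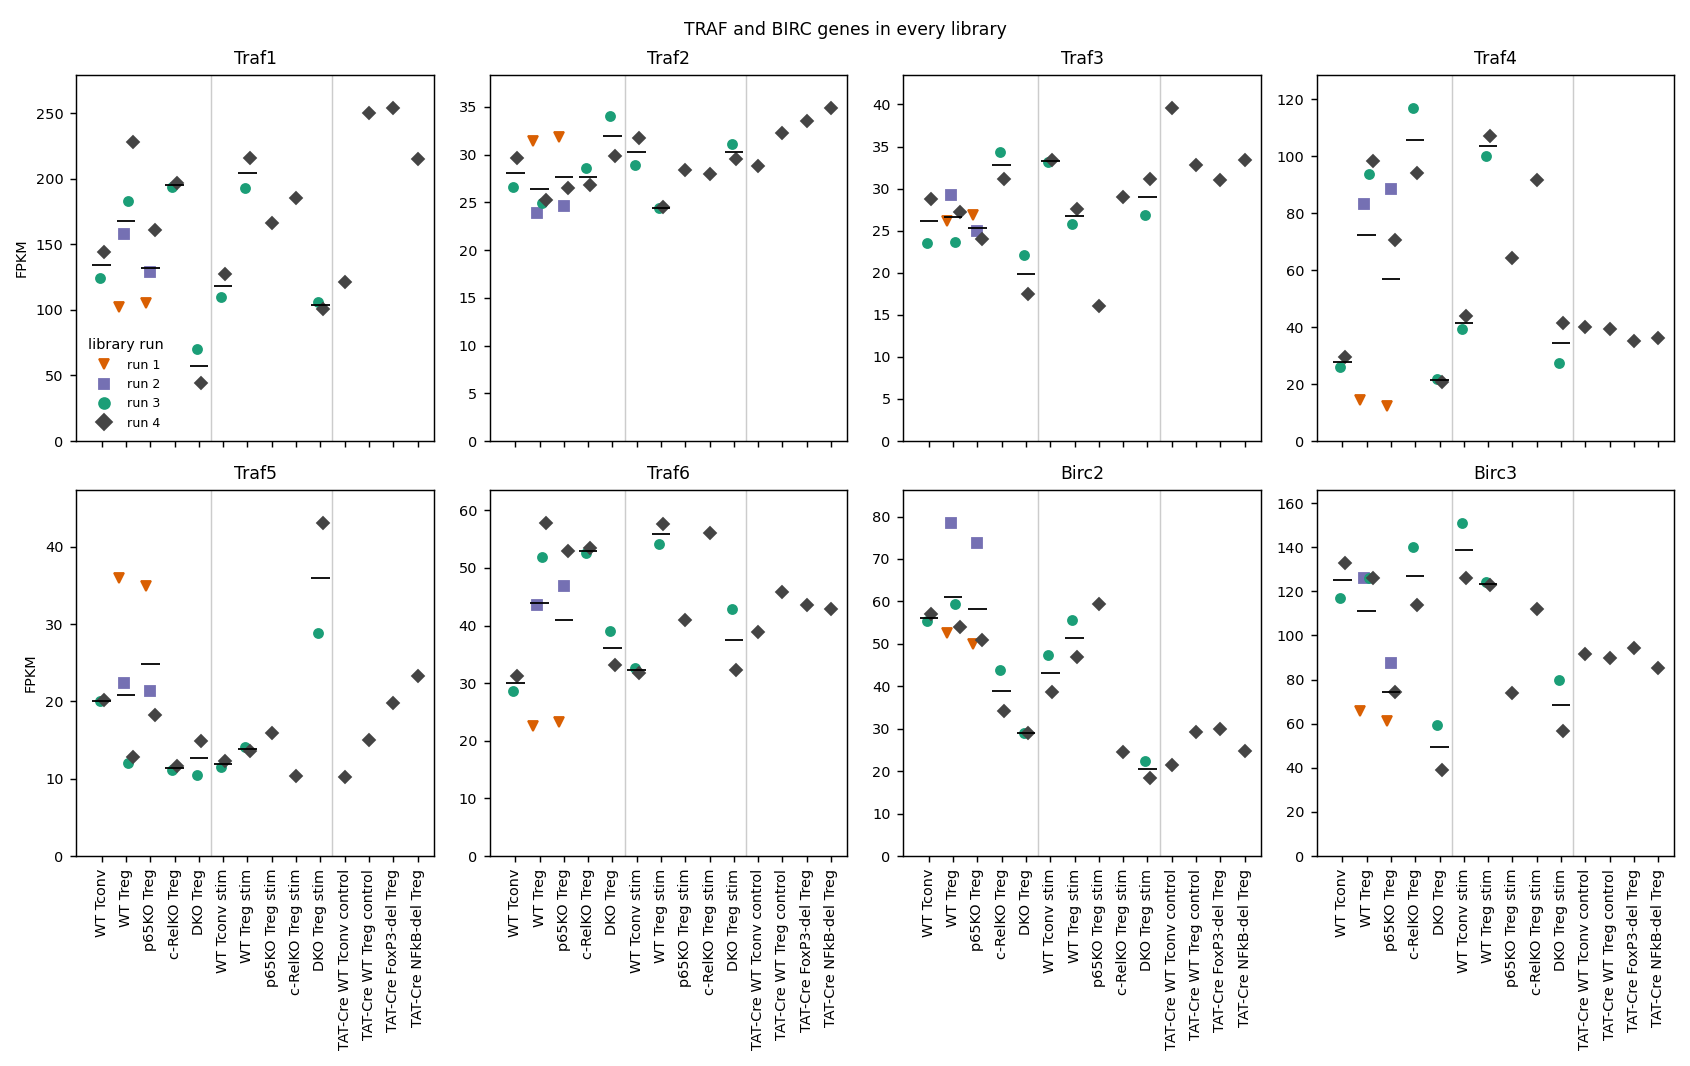
FPKM of the 8 genes (vertical axis, from 0) in each of 25 libraries by group (horizontal axis); symbols give the library run and bars the mean of groups with 2 or more libraries. Traf1 and Birc3 are lowest in DKO Treg (43.9 and 39.2 FPKM in replicate 2), and the run 1 libraries stand at 14.3 and 12.2 FPKM for Traf4.

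Loss of both subunits came with lower levels of the NF-kB target Traf1, of both cIAP ligases and, by a smaller amount, of Traf3. Traf1 was 102, 158, 183 and 228 FPKM in the WT Treg libraries and 69.8 and 43.9 in DKO Treg, with no overlap. That is a difference of -1.52 ± 0.27 on the scale of log2(FPKM + 1) (SE, adjusted p = 7.9e-04, limma). Birc2, the cIAP1 gene, was 52.5, 78.5, 59.3 and 54.0 FPKM in WT Treg and 29.1 and 28.9 in DKO Treg, and its groups did not overlap either. It fell by 1.03 ± 0.19 on the log2 scale (adjusted p = 0.00122). Birc3, the cIAP2 gene, was 65.9 in WT Treg replicate 1 and 126 in each of the other 3, against 59.6 and 39.2 in DKO Treg. The groups did not overlap, with WT Treg replicate 1 just above DKO Treg replicate 1, and the fitted difference was -1.13 ± 0.26 (adjusted p = 0.0051). Traf3 was 26.1, 29.3, 23.7 and 27.2 FPKM in WT Treg and 22.1 and 17.5 in DKO Treg, a difference of -0.41 ± 0.13 (adjusted p = 0.028). So 4 of the 8 members were called lower and 0 higher, where 13.6% of the 11532 genes tested were called lower. Called means a Benjamini-Hochberg adjusted p under 0.05 over all genes tested. Without DKO Treg replicate 2 the differences of Birc3 and Traf3 were -0.83 (adjusted p = 0.0999) and -0.25 (adjusted p = 0.319). Without WT Treg replicate 2 or 4 that of Traf3 had adjusted p = 0.0627 or 0.0526.

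The other TRAF genes did not pass in that comparison. Traf2, the adaptor that carries the cIAPs, was 31.4, 23.9, 24.9 and 25.3 FPKM in WT Treg and 34 and 29.9 in DKO Treg (0.27 ± 0.13, adjusted p = 0.135). Traf4 was 14.3 FPKM in WT Treg replicate 1 and 83.2, 93.6 and 98.5 in the other 3, against 21.8 and 20.9 in DKO Treg. Its difference of -1.40 ± 0.74 missed the threshold (adjusted p = 0.16), and without run 1 it was -2.05 ± 0.17 (adjusted p = 6.1e-06). Traf6, the Toll-like receptor adaptor, differed by -0.20 ± 0.33 (adjusted p = 0.683) and without run 1 by -0.48 ± 0.14 (adjusted p = 0.0172). Traf5 differed by -0.56 ± 0.36 (adjusted p = 0.253). Without run 1, 7 members were called, Traf2 higher and the other 6 lower, where 45.7% of all genes were. A fit with the run as a block also called 7, 6 lower and Traf2 higher, where 61.2% of all genes were called. Summed markers of CD8 T and NK cells were 38.1 and 65.6 FPKM in DKO Treg and 8.92 to 24 in WT Treg, and their part in these differences was not tested. Fewer cells of a type and less RNA per cell cannot be told apart in bulk libraries.

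**Figure D2:**
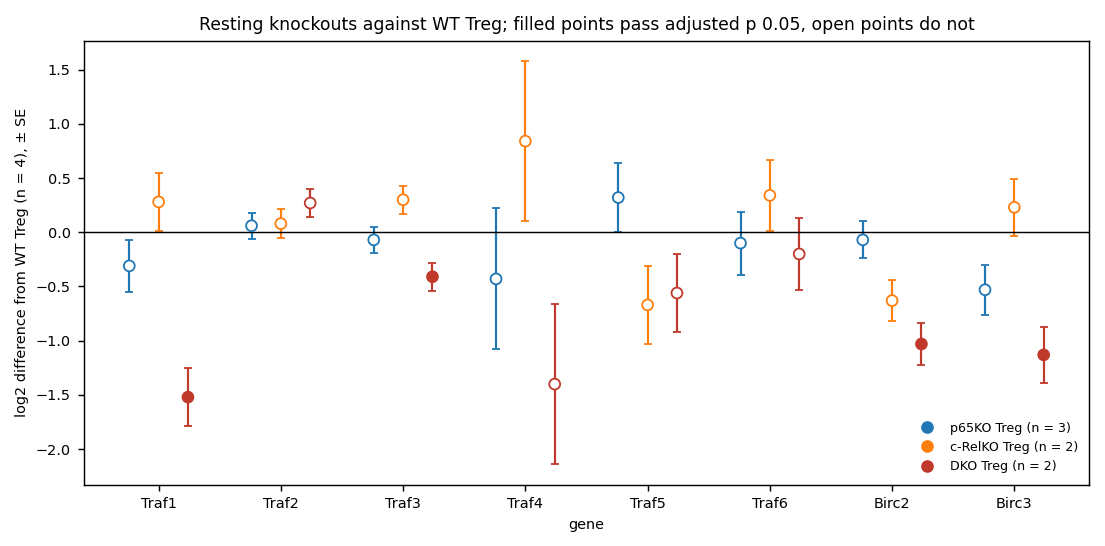
Difference of log2(FPKM + 1) from WT Treg (vertical axis, mean ± SE from the fit) for the 8 genes in resting p65KO, c-RelKO and DKO Treg; filled points passed the threshold and open points did not. The 4 filled points all belong to DKO Treg, with Traf1 lowest among them at -1.52.

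Loss of p65 alone or of c-Rel alone gave no called member. In p65KO Treg 0 of 8 passed, where 0.0434% of all genes were called. The member with the smallest p was Birc3, at 61.2, 87.6 and 74.4 FPKM in p65KO Treg, a difference of -0.53 ± 0.23 (adjusted p = 0.468). Within runs the log2 difference of Birc3 was -0.11 in run 1, -0.52 in run 2 and -0.75 in run 4. Without run 1 its difference was -0.63 ± 0.19 (adjusted p = 0.277), again with 0 of 8 called, where 0.0434% of genes were. Birc2 was 50, 73.8 and 50.9 FPKM in p65KO Treg, and differed by -0.07, -0.09 and -0.08 from the WT Treg library of the same run. The interval of its fitted difference ran from -0.45 to 0.30. Traf1 was 105, 129 and 161 FPKM in p65KO Treg (-0.31 ± 0.24, adjusted p = 0.727). In c-RelKO Treg 0 of 8 passed, where 10.6% of all genes were called. Here the smallest p was that of Birc2, at 43.8 and 34.1 FPKM, below every WT Treg library, a difference of -0.63 ± 0.19 (adjusted p = 0.0546). Birc3 was 140 and 114 FPKM in c-RelKO Treg (0.23 ± 0.26, adjusted p = 0.615), and Traf1 was 194 and 197 FPKM (0.28 ± 0.27, adjusted p = 0.549). Traf3 was 34.4 and 31.2 FPKM, above every WT Treg library (0.30 ± 0.13, adjusted p = 0.174).

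The settings for the run and for the scaling moved c-RelKO values across the threshold. Without run 1, Birc2 was called (-0.69 ± 0.20, adjusted p = 0.0367), the only 1 of 8, where 13.8% of all genes were. A block for the run gave calls for Birc2 (-0.54 ± 0.10, adjusted p = 0.0011) and Traf3 (0.36 ± 0.13, adjusted p = 0.0421), where 41.6% of all genes were. Under median-ratio size factors Birc2 was not called (-0.44, adjusted p = 0.218) and Traf3 was (0.48, adjusted p = 0.0405), where 9.43% of all genes were. Over 16 alternatives the difference of Birc2 ran from -0.80 to -0.44, with adjusted p from 0.0011 to 0.358, and 4 of them called it. Both c-RelKO libraries carried markers of other cells. Replicate 1, in run 3, had summed myeloid markers of 80.5 FPKM and erythroid markers of 9.43, against 5.24 and 6.88 in the WT Treg library of its run. Birc2 was 43.8 and 59.3 FPKM in these libraries, and the part of other cells was not tested.

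The single knockouts were then set against each other, a comparison added after the data were seen. Birc2 was higher in p65KO than in c-RelKO Treg by 0.55 ± 0.21 (adjusted p = 0.0809) and Birc3 lower by 0.77 ± 0.28 on the log2 scale (adjusted p = 0.077). Neither passed, and 0 of 8 members did, where 14.1% of all genes were called. Once the run entered as a block, Birc2 (0.47 ± 0.11, adjusted p = 0.00524), Birc3 (-0.51 ± 0.19, adjusted p = 0.0493) and Traf3 (-0.45 ± 0.14, adjusted p = 0.0261) were called, where 39.9% of all genes were. Without run 1 none of these 3 passed (adjusted p = 0.0619, 0.0576 and 0.085), and 0 of 8 did, where 15.2% of genes were called. The ratio of Birc3 to Birc2 in FPKM shows the same values per library. It was 1.22, 1.19 and 1.46 in resting p65KO Treg and 1.25 after stimulation, and 3.19 and 3.34 in c-RelKO Treg and 4.57 after stimulation. Resting WT Treg had 1.26, 1.60, 2.13 and 2.33, with the lowest value in run 1, overlapping the p65KO range and below the c-RelKO libraries. Resting DKO Treg had 2.05 and 1.36, and stimulated DKO Treg 3.54 and 3.10. WT Tconv went from 2.11 and 2.33 at rest to 3.18 and 3.25 after stimulation, and stimulated WT Treg had 2.22 and 2.61. The TAT-Cre libraries lay at 3.07 to 4.27, so ratios above 3 were not particular to c-RelKO Treg. The p65KO and c-RelKO libraries did not overlap in this ratio, but their runs differed in part. The p65KO ratios of 1.22 and 1.19 came from runs 1 and 2, which hold no c-RelKO library. WT Treg had 1.26 and 1.60 in those runs, against 2.13 and 2.33 in runs 3 and 4. Among resting Treg of run 4 the ratio was 1.46 in p65KO, 2.33 in WT and 3.34 in c-RelKO. The part of the run was not tested for this ratio. In run 4, the run with both single knockouts, Birc2 was 50.9 in p65KO and 34.1 FPKM in c-RelKO Treg, and Birc3 was 74.4 and 114 FPKM. Both of these libraries carried myeloid markers, whose part was not tested.

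**Figure D3:**
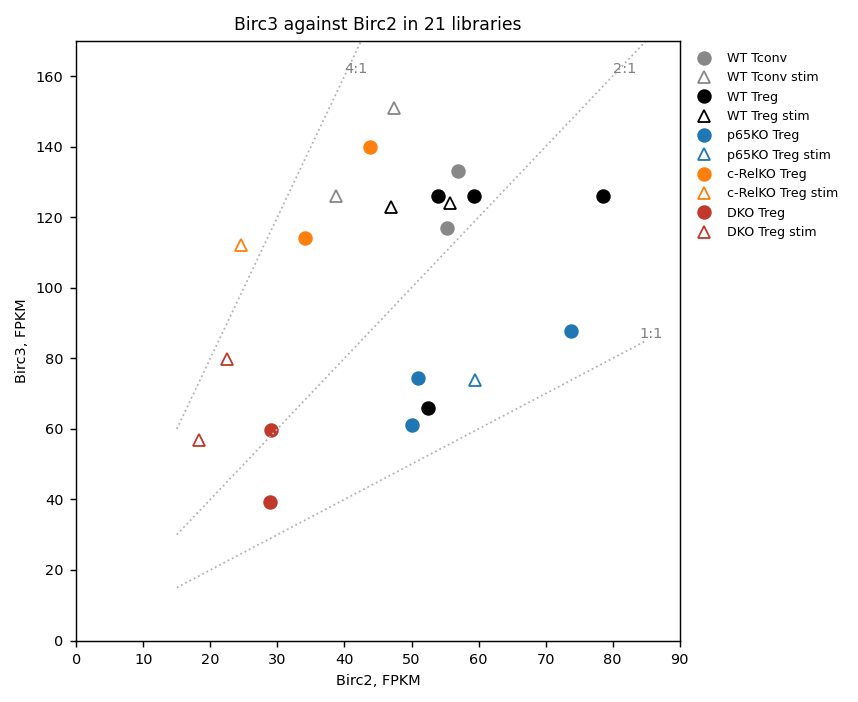
Birc3 (vertical axis, FPKM) against Birc2 (horizontal axis, FPKM) in the 21 libraries outside the TAT-Cre set; filled circles are resting and open triangles stimulated cells, and dotted lines mark fixed ratios. p65KO libraries lie at ratios of 1.19 to 1.46, c-RelKO libraries at 3.19 to 4.57, and DKO libraries at the lower left.

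The double knockout was next set against each single one. Against p65KO Treg, Traf1 (-1.22 ± 0.28, adjusted p = 0.00953) and Birc2 (-0.96 ± 0.21, adjusted p = 0.00586) were lower, 2 of 8 members, where 9.54% of all genes were called lower. Birc3 differed by -0.60 ± 0.28 (adjusted p = 0.158). Without run 1, Birc3 (-0.73 ± 0.21, adjusted p = 0.022) and Traf4 (-1.84 ± 0.19, adjusted p = 6.0e-05) were called as well, 4 of 8, where 27.3% of all genes were. Against c-RelKO Treg, Traf1 (-1.80 ± 0.31, adjusted p = 0.0016), Birc3 (-1.37 ± 0.31, adjusted p = 0.00643) and Traf3 (-0.71 ± 0.15, adjusted p = 0.00529) were lower, 3 of 8, where 5.91% were. Birc2 differed by -0.40 ± 0.22 there (adjusted p = 0.197). Traf4 was 21.8 and 20.9 FPKM in DKO and 117 and 94.2 in c-RelKO Treg, and missed the threshold (-2.24 ± 0.85, adjusted p = 0.0666). Without run 1, Traf4 (-2.24 ± 0.19, adjusted p = 1.7e-05) and Traf6 (-0.55 ± 0.16, adjusted p = 0.0175) were called as well against c-RelKO Treg, where 40.6% of all genes were. Without DKO Treg replicate 2, Traf1 against p65KO Treg was -0.89 (adjusted p = 0.139), Birc3 against c-RelKO Treg -1.07 (adjusted p = 0.0852) and Traf3 -0.55 (adjusted p = 0.0759). Without c-RelKO Treg replicate 1, Birc3 had adjusted p = 0.0514. Under the run block, 6 members were called against p65KO Treg, where 46.8% of genes were, and 6 against c-RelKO Treg, where 60.3% were. All of these comparisons share the DKO libraries.

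Whether the double knockout differed from the sum of the single ones was tested as an interaction. For Traf1 the DKO value lay 1.49 below the sum of the 2 single differences on the log2 scale (-1.49 ± 0.39), with adjusted p = 0.0675. No member was called, 0 of 8, where 1.91% of all genes were. The interaction of Birc2 was -0.33 ± 0.28 (adjusted p = 0.552) and that of Birc3 -0.83 ± 0.38 (adjusted p = 0.263). Without run 1, Traf1 (-1.43 ± 0.30, adjusted p = 0.0171) and Traf4 (-2.03 ± 0.25, adjusted p = 0.00132) were called, 2 of 8, where 8.17% of genes were. Under the run block, 5 members were called, all negative, where 38.4% of genes were: Traf1 (-1.59, adjusted p = 6.9e-04), Traf3 (-0.61), Traf4 (-2.01), Traf6 (-0.58) and Birc3 (-0.92).

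WT Treg and WT Tconv did not differ in a called member, 0 of 8, where 12.6% of all genes were called. Traf4 was 26 and 29.5 FPKM in WT Tconv, below the WT Treg libraries of runs 2 to 4 and above the 14.3 FPKM of run 1. Its difference was 1.04 ± 0.74 (adjusted p = 0.394). Traf6 was 28.7 and 31.2 FPKM in WT Tconv and 22.6, 43.5, 51.9 and 57.8 in WT Treg (0.46 ± 0.33, adjusted p = 0.408). Without run 1, Traf4 (1.69 ± 0.17, adjusted p = 3.6e-05) and Traf6 (0.74 ± 0.14, adjusted p = 0.00312) were higher in WT Treg, 2 of 8 members, where 27.3% of genes were called. Within runs 3 and 4 the log2 differences were 1.81 and 1.71 for Traf4 and 0.83 and 0.87 for Traf6. A block for the run gave 4 called members, where 45.8% of genes were: Traf1 (0.57), Traf4 (1.67) and Traf6 (0.83) higher and Traf5 (-0.56) lower in WT Treg. DKO Treg had less of 3 members than WT Tconv, where 16.1% of genes were called lower: Traf1 (-1.25 ± 0.31, adjusted p = 0.00604), Birc2 (-0.93 ± 0.22, adjusted p = 0.00511) and Birc3 (-1.34 ± 0.31, adjusted p = 0.00342). Traf1 missed the threshold without DKO Treg replicate 2 (-0.93, adjusted p = 0.0817) or WT Tconv replicate 2 (-1.14, adjusted p = 0.0518). The run block gave 5 called members in that comparison, where 64.2% of genes were.

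Stimulation for 3 h was followed by higher Traf5 and Traf3 in DKO Treg. Traf5, the relative of Traf2, was 10.5 and 14.9 FPKM in resting DKO Treg and 28.9 and 43.1 after stimulation, a rise of 1.43 ± 0.41 (adjusted p = 0.0438) with no overlap. The stimulated DKO Treg replicate 2 had the highest Traf5 level of all 25 libraries. Traf3 rose from 22.1 and 17.5 to 26.9 and 31.1 FPKM (0.53 ± 0.15, adjusted p = 0.0404). These were 2 of 8 members, where 3.86% of all genes were called higher. Traf1 was 106 and 101 FPKM after stimulation, above both resting libraries, but its difference missed the threshold (0.89 ± 0.31, adjusted p = 0.0899). Neither Traf3 nor Traf5 stayed past the threshold when any 1 of the 4 DKO libraries was left out, with differences of 0.37 to 0.70 and 1.15 to 1.71. The run as a block gave 5 called members, where 42.1% of genes were: Traf1, Traf3, Traf4 and Traf5 higher and Birc2 lower. Stimulated DKO Treg replicate 2 had summed erythroid markers of 388 FPKM against 39.2 in the resting library of its run, and the part of this was not tested.

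WT cells gave no called member. In WT Treg 0 of 8 passed and 0% of all genes were called with limma. Of the 11532 genes tested, 311 had an unadjusted p under 0.05, fewer than chance alone would give on average at that limit. Without run 1 the counts were again 0 of 8 and 0%. Traf5 was 12 and 12.8 FPKM in the resting WT Treg of runs 3 and 4 and 14.1 and 13.6 in the stimulated libraries. Traf1 was 193 and 216 and Birc3 124 and 123 FPKM in stimulated WT Treg, within the range of the resting libraries. In WT Tconv 0 of 8 passed, where 11.9% of all genes were called. Traf5 was 20.0 and 20.2 FPKM in resting and 11.5 and 12.3 in stimulated WT Tconv (-0.71 ± 0.41, adjusted p = 0.317), lower after stimulation in both runs. In the fit with a run block, Traf4 (0.57), Traf5 (-0.71) and Birc2 (-0.38) were called in WT Tconv, where 43.1% of genes were.

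The difference between responses was tested directly. The response of Traf5 in DKO Treg exceeded that in WT Treg by 1.85 ± 0.55 (adjusted p = 0.175) and that in WT Tconv by 2.13 ± 0.59 (adjusted p = 0.173). No member was called in either test, 0 of 8, where 0.971% and 0.598% of all genes were called. The comparison with WT Tconv was added after the data were seen. Without run 1, Traf5 was called against WT Treg (1.55 ± 0.36, adjusted p = 0.0456), where 2.5% of genes were. With the run as a block it was called against WT Treg (1.37 ± 0.23, adjusted p = 0.00372), 1 member where 14% of genes were. Under the same block it was called against WT Tconv (2.13 ± 0.24, adjusted p = 3.9e-04), there with Traf1, where 6.85% were. WT Tconv and WT Treg did not differ in the response of any member, 0 of 8, where 1.03% of genes were called, nor without run 1, where 3.14% were. With the block Traf5 was called there (-0.76 ± 0.23, adjusted p = 0.0449), where 16% of genes were.

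**Figure D4:**
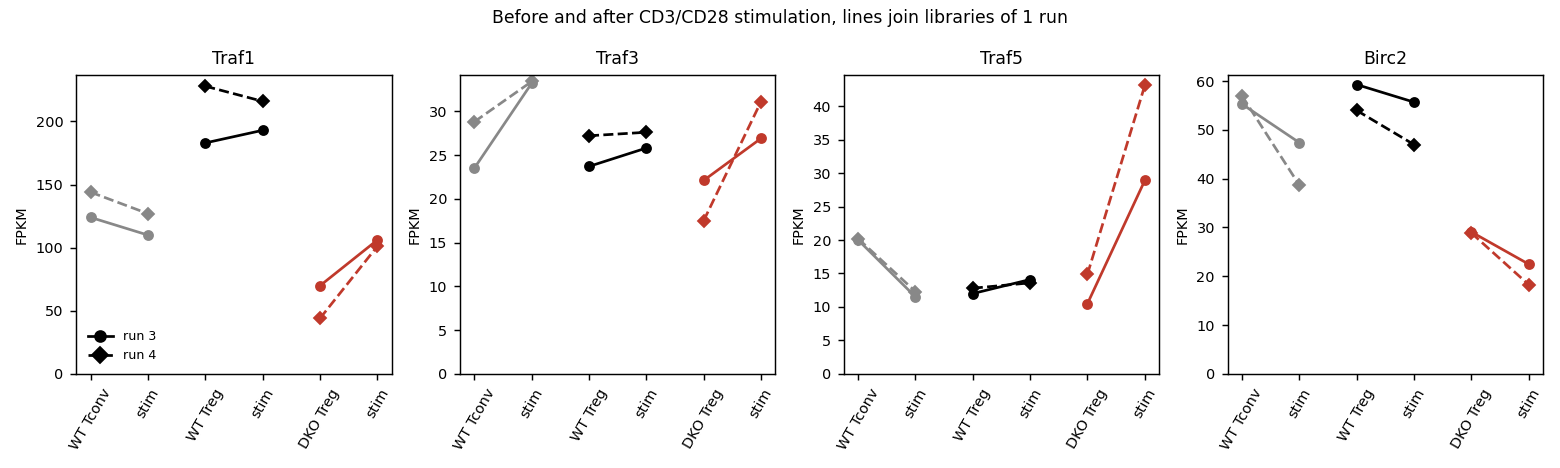
FPKM (vertical axes, from 0) of Traf1, Traf3, Traf5 and Birc2 in resting and stimulated WT Tconv, WT Treg and DKO Treg; each line joins the 2 libraries of 1 run (circles and solid lines, run 3; diamonds and broken lines, run 4). Traf5 goes from 10.5 to 28.9 and from 14.9 to 43.1 FPKM in DKO Treg and from 20.0 to 11.5 and from 20.2 to 12.3 in WT Tconv.

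Among stimulated cells, DKO Treg had lower Traf1, Birc2 and Birc3 and higher Traf5 than WT Treg. Birc2 was 55.7 and 47.0 FPKM in WT and 22.5 and 18.3 in DKO Treg (-1.29 ± 0.22, adjusted p = 7.3e-04). Birc3 was 124 and 123 against 79.9 and 56.8 FPKM (-0.86 ± 0.31, adjusted p = 0.0441), and Traf1 193 and 216 against 106 and 101 FPKM (-0.97 ± 0.31, adjusted p = 0.0278). Traf5 was 14.1 and 13.6 against 28.9 and 43.1 FPKM (1.29 ± 0.41, adjusted p = 0.0283). These were 3 members lower, where 16.2% of genes were called lower, and 1 higher, where 16.6% were called higher. No groups overlapped for these 4 genes, nor for Traf2, Traf4 and Traf6, which were not called. The lack of overlap between 2 and 2 libraries thus did not set the called members apart. The share of all genes without overlap was not counted, so the lack of overlap only describes these values. Birc2 stayed called without any 1 library. Traf1 missed the threshold when any 1 of the 4 libraries was left out (adjusted p from 0.0831 to 0.124). Traf5 (0.104 to 0.196) and Birc3 (0.129 to 0.278) missed it without either WT library or without stimulated DKO Treg replicate 2. Traf4 was 100 and 107 FPKM in WT and 27.4 and 41.6 in DKO Treg, and missed the threshold (-1.59 ± 0.85, adjusted p = 0.17). Without run 1, Traf4 (-1.59 ± 0.19, adjusted p = 5.9e-05) and Traf6 (-0.58 ± 0.16, adjusted p = 0.0116) were also called lower. Traf2 was then called higher (0.30 ± 0.11, adjusted p = 0.0419), where 44.6% of genes were called. Under the run block 7 members were called, where 62.7% of genes were.

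The single knockouts had 1 stimulated library each, tested against the spread estimated from the remaining groups, so a call there rests on 1 library assumed to vary like the others. Stimulated c-RelKO Treg had 24.5 FPKM of Birc2 (-1.03 ± 0.28 against stimulated WT Treg, adjusted p = 0.174) and 112 of Birc3. Stimulated p65KO Treg had 59.4 FPKM of Birc2, 73.9 of Birc3 and 16.1 of Traf3 (-0.70 ± 0.19, adjusted p = 0.0789). No member was called in either, 0 of 8, where 0.347% and 1.01% of all genes were called. In the fit with a run block Birc2 was called in c-RelKO Treg (-0.94 ± 0.13, adjusted p = 0.00132), where 8.55% of genes were, but not without run 1 (adjusted p = 0.0907), where 1.59% were. Traf3 (-0.72 ± 0.17, adjusted p = 0.00975) and Traf4 (-0.72 ± 0.22, adjusted p = 0.0311) were then called in p65KO Treg, where 27.2% of genes were. Without run 1 Traf3 passed (adjusted p = 0.0402) and Traf4 did not (adjusted p = 0.0896), where 7.47% of genes were called. Stimulated WT Treg did not differ from stimulated WT Tconv in a called member, 0 of 8, where 6.64% of genes were called. Traf4 was 100 and 107 FPKM in stimulated WT Treg and 39.3 and 43.9 in stimulated WT Tconv, with no overlap (1.30 ± 0.85, adjusted p = 0.421). Without run 1, Traf1 (0.78 ± 0.22, adjusted p = 0.0314), Traf4 (1.30 ± 0.19, adjusted p = 7.6e-04) and Traf6 (0.77 ± 0.16, adjusted p = 0.00659) were called higher in Treg, where 16.3% of genes were called. The run block gave 4 called members there, where 37% of genes were: Traf1 (0.78), Traf4 (1.30) and Traf6 (0.77) higher and Traf2 (-0.30) lower in Treg.

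The TAT-Cre set has 1 library a group and gives no test. The library labelled FoxP3-del had 266 FPKM of Foxp3 against 86.7 in the WT Treg control, against its label, so no direction was drawn from it. Rel was 171 FPKM in the WT Treg control and 38.7 in the NFkB-del library, and Rela 125 and 124 FPKM. Traf1 was 250, 254 and 215 FPKM in the WT Treg control, FoxP3-del and NFkB-del libraries, and 121 in WT Tconv. Birc2 was 29.2, 29.9, 24.8 and 21.5 FPKM and Birc3 89.6, 94.3, 85.4 and 91.7 FPKM in the same order. Traf5 was 15, 19.8, 23.3 and 10.2 FPKM, highest in the NFkB-del library. Traf4 was 35.0 to 40.0 FPKM in all 4. The NFkB-del library had summed erythroid markers of 1637 FPKM and the FoxP3-del library summed myeloid markers of 109, whose part was not tested.

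The members' surroundings were read from 7 lists of pathway genes, 82 in all, of which 78 were tested. In DKO against WT Treg 19 were lower and 10 higher, 24.4% and 12.8% of them, where 13.6% and 19.4% of all genes were. The 19 lower genes include the deleted gene Rel (188 to 2.01 FPKM), whose fall was set by the genotype, and the lists also hold Rela, the other deleted gene. Of 12 tested TNF receptors that bind TRAF proteins, 4 were lower and 1 higher (median -0.54, against 0.06 over all genes). Cd27, a costimulatory receptor, had a mean of 177 FPKM in WT Treg and 17.4 in DKO Treg (-3.29 ± 0.31, adjusted p = 9.0e-06). Tnfrsf25 was lower by 0.99 ± 0.27 on the log2 scale (adjusted p = 0.0134). Of 8 genes of the IKK complex and the non-canonical pathway 3 were lower and 0 higher (median -0.74). They were Ikbke (-1.79 ± 0.35), an IKK-related kinase, Ikbkb (-1.02 ± 0.20), the catalytic IKK subunit beta, and Map3k14 (-1.10 ± 0.34, adjusted p = 0.0235), the kinase that TRAF3 and the cIAPs keep degraded. Of 9 canonical NF-kB subunits and inhibitors 4 were lower and 0 higher (median -1.47), among them the deleted gene Rel and the inhibitors Nfkbia (625 to 145 FPKM, -1.91 ± 0.46) and Nfkbie (-1.47 ± 0.35).

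Of 15 adaptors and kinases at the receptor, 4 were lower and 2 higher in DKO Treg (median 0.18). Ripk2 (-1.13 ± 0.29) and Irak2 (-0.68 ± 0.17) were lower and Myd88, the Toll-like receptor adaptor, higher (0.59 ± 0.12). Of 17 ubiquitin enzymes and TRAF regulators 3 were lower and 3 higher (median -0.36). Tank, a TRAF-binding protein, was lower (-0.81 ± 0.17), and Ube2n (0.63 ± 0.13) and Ube2v1 (0.60 ± 0.14), partners of TRAF6 in making ubiquitin chains, were higher. Of 9 other TRAF-fold and IAP genes 3 were higher and 1 lower (median 0.36). Birc5, the survivin gene of dividing cells, rose from 20.3 to 161 FPKM (3.08 ± 0.55), Traip from 1.88 to 9.24 FPKM (1.85 ± 0.28), and Naip5 fell by 1.32 ± 0.38. Of 8 IAP antagonists, caspases and their inhibitor, 1 was higher and 0 lower (median 0.16).

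In c-RelKO against WT Treg 10 of the 78 were lower and 2 higher, 12.8% and 2.56%, where 8.98% and 1.62% of all genes were. The 10 lower genes include the deleted gene Rel (188 to 1.92 FPKM), whose fall was set by the genotype. Ikbke (-1.87 ± 0.35), Ikbkb (-0.93 ± 0.20) and Chuk (-0.45 ± 0.12), the other catalytic IKK subunit, were among the lower ones. Another scaling of the libraries moves the median gene of this comparison by 0.16 on the log2 scale. It turns the split of all called genes from 15.3% to 35.8% higher. In p65KO Treg 0 of the 78 were called. Between WT Treg and WT Tconv 14 were higher and 4 lower in Treg, 17.9% and 5.13%, where 7.03% and 5.53% of all genes were. Tnfrsf4 (949 against 126 FPKM, 2.67 ± 0.57), Tnfrsf1b (186 against 44.3 FPKM, 1.99 ± 0.32) and Casp8 (105 against 50.8 FPKM, 1.01 ± 0.19) were higher in Treg, and Ikbke was lower (-1.28 ± 0.35). On stimulation of DKO Treg 3 of the 78 rose and 4 fell, 3.85% and 5.13%, where 3.86% and 6.13% of all genes did. Cflar, the caspase 8 inhibitor cFLIP, rose (1.30 ± 0.18, adjusted p = 5.2e-04), and Malt1, of the antigen receptor complex, rose as well (1.47 ± 0.26).

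For the 4 members called against WT Treg, the genes with the most similar pattern were found by Pearson correlation of log2(FPKM + 1) over 21 libraries. These libraries share runs and depth, and the values are a description. Traf1 was closest to Nfkbia (r = 0.91), Lrig1 (0.88) and Itpkc (0.87). Among the genes closest to Birc3 were Map3k14 (0.92) and Tle4 (0.89). Birc2 was closest to Zrsr1 (0.96), Cd1d1 (0.91) and Whamm (0.90), and Traf3 to Supv3l1 (0.79), Usp36 (0.75) and Polr1a (0.74). None of the genes named here was close to more than 1 of the 4 members by this rule. With only 3 genes taken per member, this cannot show that the patterns of the 4 members differ.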

How the data were processed

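The authors deposited gene-level FPKM values with confidence bounds, 1 table per library. Per the file headers these are Cufflinks gene tracking tables. The tools named per the submitters' processing notes are Cufflinks, TopHat and bcl2fastq, with build mm9. Their versions, the annotation and the strandedness are not given in the sources used. Of 23235 symbols, 250 with an entry not marked OK were left out, entries of a symbol were summed, and 22985 remained. Depth, implied by the confidence bounds, was 15.4 to 52.8 M fragments per library and covers counting error only.

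From these values log2(FPKM + 1) was computed and fitted with limma 3.58.1 in R 4.3.3, with a trend, 1 mean per group over 21 libraries and 11 residual degrees of freedom. Genes had to reach 1 FPKM in 2 or more libraries, which left 11532 for testing, with Benjamini-Hochberg adjustment over all of them, in 19 comparisons. Fold changes on this scale understate changes of low genes. Overlap of group ranges was read for the members only, without a share over all genes beside it. Fits with the library run as a block had 8 residual degrees of freedom. The TAT-Cre set was not fitted. The script was tested on simulated data.

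Deviations from group means correlated at 0.432 on average within runs (51 pairs, lowest 0.0357), at -0.209 between runs (105 pairs) and at 0.222 for shared replicate numbers (57 pairs, lowest -0.499), and since not every pair passed 0.1 neither was taken as pairing. Libraries of a run were still alike on average, and the fit without a block leaves this likeness in the spread. For Traf4 in WT Treg vs WT Tconv the SE was 0.74 without the block and 0.17 with it. A member not called without the block is therefore not shown to be unchanged. Locus starts, counted from 0 in the files, are printed from 1. Named are the 8 genes, Rela, Rel and Foxp3, up to 3 called genes per pathway list with the smallest adjusted p, and 3 genes of highest correlation per member called against WT Treg, except that some genes chosen by these rules are not reported here. T cell, Treg, CD8 T and NK cell, B cell, myeloid and erythroid markers served as checks. Summed T cell markers were 818 FPKM or more in every library and Treg markers 657 or more in every Treg library. That lowest Treg value was WT Treg replicate 1, below resting DKO Treg (747 and 891 FPKM). The members and lists were chosen with earlier results of these data known. Alternatives were the pseudocount, the filter, size factors, the groups fitted, the trend, blocks, left-out libraries and the motif.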

Additional observations from a re-analysis of the deposited data

Results flagged for a closer look

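Birc3 in WT Treg had 1 library far from the others: replicate 1 of run 1 stood at 65.9 FPKM and the other 3 at 126 FPKM each. The gap to the nearest library takes up nearly the whole range of the group. It passes a limit that chance alone passes in about 1 in 20 groups of this size. The p65KO Treg library of the same run had 61.2 FPKM of Birc3.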

How the results depend on the processing

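The 18 member values called in the report kept their sign in all 262 values under the alternatives run and stayed past the threshold in 222 of them. Counts below are members called of 8, and for each change the cause was not tested unless the setting itself uses fewer libraries or groups. With the replicate block by library run, the count was 4 for WT Treg vs WT Tconv, 2 for c-RelKO and 7 for DKO vs WT Treg, 6 for DKO vs p65KO and 6 for DKO vs c-RelKO, 5 for DKO Treg vs WT Tconv and 3 for p65KO vs c-RelKO. Under the same block it was 3 for stimulation of WT Tconv, 5 for that of DKO Treg, 4 for stimulated WT Treg vs WT Tconv, and 7, 2 and 1 for stimulated DKO, p65KO and c-RelKO vs WT Treg. The responses gave 1 (WT Tconv vs WT Treg), 1 (DKO vs WT Treg) and 2 (DKO vs WT Tconv), and non-additivity 5. The replicate block by replicate number, which the labels do not tie to a shared animal or day, gave 2 for c-RelKO vs WT Treg, 2 for stimulation of WT Treg, 1 for stimulated WT Treg vs WT Tconv, 4 for p65KO vs c-RelKO, and 1 each for the DKO responses against WT Treg and WT Tconv and for non-additivity. The other counts that this block gave moved by at most 1.5 times.

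Leaving out both libraries of run 1, chosen after seeing the data, gave 2 for WT Treg vs WT Tconv, 1 for c-RelKO and 7 for DKO vs WT Treg, 4 for DKO vs p65KO, 5 for DKO vs c-RelKO, 1 for stimulation of WT Tconv, 4 for that of DKO Treg, 3 for stimulated WT Treg vs WT Tconv, 7 and 1 for stimulated DKO and p65KO vs WT Treg, 1 each for both DKO responses and 2 for non-additivity. Leaving out WT Treg replicate 1, p65KO Treg replicate 3 and c-RelKO Treg replicate 2, which carried markers of other cells, gave 1 for WT Treg vs WT Tconv and 1 for the DKO vs WT Tconv response. Median-ratio size factors gave 1 for c-RelKO vs WT Treg, 2 for stimulated DKO and 1 for stimulated p65KO vs WT Treg, and 1 for p65KO vs c-RelKO. Fitting only the groups compared, on fewer libraries, gave 2 for DKO vs WT Treg, 0 for DKO vs p65KO, 0 for stimulation of DKO Treg, 2 for that of WT Tconv, 3 for stimulated WT Treg vs WT Tconv and 1 for the DKO vs WT Tconv response. No filter and no trend each gave 1 for stimulation of DKO Treg. Leaving out 1 library at a time gave 2 to 6 for DKO vs WT Treg, 1 to 2 for DKO vs p65KO, 1 to 3 for DKO vs c-RelKO, 2 to 4 for DKO vs WT Tconv, 0 for stimulation of DKO Treg, 1 to 3 for stimulated DKO vs WT Treg, and 0 to 1 for c-RelKO vs WT Treg and for non-additivity. A group left with 1 library is assumed to vary like the others. The counting error implied by the depth was at most 5.43% for a member in any library.

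The scaling of the libraries moved the share of called genes that were higher in other comparisons too. Under size factors it went from 76.8% to 53.4% for DKO vs c-RelKO, from 88.4% to 61.7% for p65KO vs c-RelKO, from 38.6% to 60.1% for stimulation of DKO Treg and from 64.1% to 47.1% for stimulated p65KO vs WT Treg. It went from 75.9% to 91.2% for the DKO vs WT Treg response, from 52.2% to 62.5% for the DKO vs WT Tconv response and from 57.7% to 41.7% for non-additivity.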

Other observations

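The ratio of Traf1 to Traf2, in FPKM, was 3.24, 6.61, 7.36 and 9.02 in resting WT Treg and 7.88 and 8.81 after stimulation. It was 2.06 and 1.47 in resting DKO Treg, below every WT Treg library. Stimulated DKO Treg had 3.40 and 3.42, below every WT Treg library except replicate 1. In WT Tconv it was 4.64 and 4.86 at rest and 3.81 and 4.02 after stimulation. The TAT-Cre libraries had 7.73 in the WT Treg control, 7.58 in the library labelled FoxP3-del, 6.17 in NFkB-del and 4.2 in WT Tconv.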
